A study of Mus musculus with 6 samples.

Results

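The semaphorins, plexins, ephrins, Eph receptors, Slits, Robos, netrins and Unc5 receptors were followed in RNA sequencing of mouse aortas under angiotensin II, a peptide hormone that constricts vessels and drives remodelling of their wall. Genes of these 8 families were taken by their symbols, which gave 66 of the 41064 genes in the deposited table. Of these 66, 60 passed the filter on low counts. The 6 that did not were Epha6, Epha8, Epha10, Robo3, Slit1 and Ntn5, and Epha8 had 0 counts in all 6 libraries. The 2 groups were 3 libraries labelled JOSD2 knockout with angiotensin II, and 3 labelled wild type with angiotensin II. Aortas without angiotensin II were not analysed here, so each comparison below sets treated libraries of one label against treated libraries of the other. The groups also differed in mitochondrial share and in markers of other organs, both given below. How far genotype alone accounts for any difference was not tested. The sources used here do not give the allele, strain, age, sex, dose or duration of treatment. The series' design text speaks of 3 mice a group, but which library came from which mouse is not in the labels, so p-values measure the spread between libraries, which may be technical.

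Guidance proteins steer growing axons and growing vessels with largely the same ligands and receptors. Semaphorins signal through plexins, with neuropilins as partners for most of the secreted class 3 members. Ephrins stay on the membrane and signal through Eph receptors on the neighbouring cell, Slits bind Robos, and netrins bind Dcc, neogenin and Unc5 receptors. In vessels, ephrin-B2 is known as a mark of arterial endothelium and EphB4 of venous endothelium, Robo4 and Unc5b are largely endothelial receptors, and plexin-D1 patterns endothelial sprouts.

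Deposited count totals lay between 63612353 and 75886761 per library, in a unit that appears to hold about 4 counts per read pair. Mitochondrially encoded genes took 23.8% to 23.9% of counts in the labelled knockout, against 36.2% in wild type. Levels are therefore given as CPM, counts per a fixed library total after TMM scaling, which sets the bulk of genes level between libraries. FPKM, the deposited level per length of transcript, is used to compare genes with each other within libraries. Josd2 itself, the gene named as knocked out, was at 21.7, 19.9 and 21.4 CPM in the labelled knockout, against 29.9, 31.0 and 29.3 CPM in wild type. It was lower (edgeR log2 fold change -0.52 with SE 0.07, adjusted p = 0.000244) but still detected in every library, so the group is called the labelled knockout. On deposited FPKM, Josd2 was at 8.01, 7.35 and 7.91 in the labelled knockout, against 8.31, 8.61 and 8.17 in wild type. The size of its fall thus depends on the scaling. The label of aorta was checked against 10 smooth muscle markers, whose summed level was 22618 to 22780.4 CPM in the labelled knockout, against 23059.9 to 23221 CPM in wild type. Markers of fat, named as a tissue in the protocol text, summed to 1002 to 1011 CPM in the labelled knockout, against 775 to 819.7 CPM in wild type.

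Of the 60 tested genes, 32 were higher in the labelled knockout at an adjusted p under 0.05 by edgeR's quasi-likelihood test, 1 was lower and 27 did not pass. The share that was higher was 53.3%, while 13.2% of all 20132 tested genes were higher. The share that was lower was 1.67%, while 11.5% of all tested genes were lower. The median log2 fold change was 0.47 over the 60 genes and -0.00307 over all tested genes. A rise of at least 2-fold was called for 8 of the 60, Sema5b near the detection limit included, against 2.57% of all genes, and no member had a 2-fold fall, against 3.39%. CPM values of the groups did not overlap for 35 members with the labelled knockout above, where 21.3% of all genes did so, and for 2 members with it below, where 19.8% did so. Among members with a mean FPKM of at least 1, 23 of 32 were higher, while 19.4% of all genes at that level were, and 1 was lower, against 15.5%. Below 1 FPKM, 9 of 28 were higher, while 5.23% of such genes were, and none was lower, against 6.45%. The wild type libraries alone were enough to pass the filter for 31 of the 32 genes that were higher. The exception was Sema5b, which passed through the labelled knockout libraries, where it is high.

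**Figure D1:**
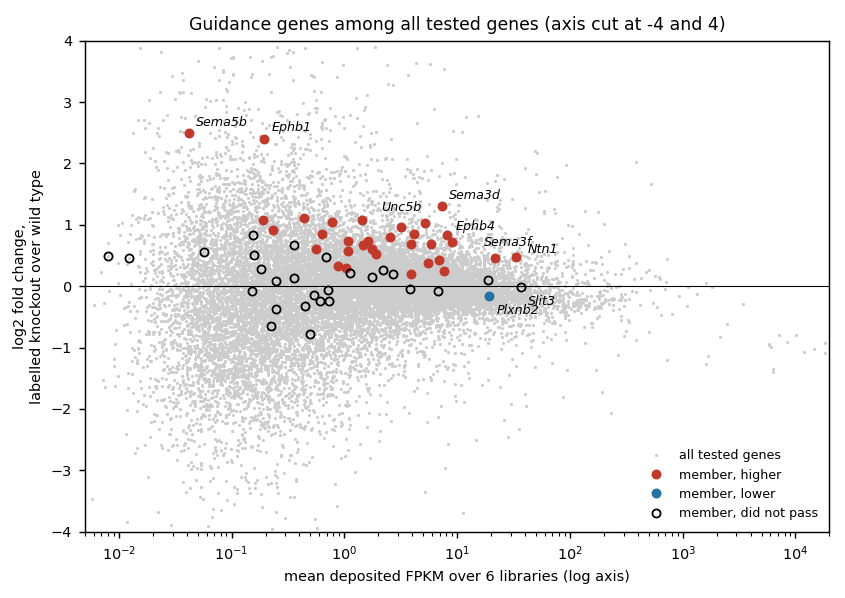
Each tested gene by its mean deposited FPKM over 6 libraries (log axis) and its log2 fold change, labelled knockout over wild type, with the 60 guidance genes marked by call. Filled red points of the 32 higher genes lie above 0 from the lowest levels up to Ntn1, and Plxnb2 is the only blue point.

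The scaling sets where 0 lies. With libraries scaled by their count totals in place of TMM, the median of all tested genes shifted by 0.41 in log2, 45 members were higher and none was lower, where 46.8% of all genes were higher and 3.81% lower. Limma on log2(FPKM + 1) called 46 members higher and 0 lower, where 46.9% of all genes were higher and 4.31% lower. DESeq2, with size factors of its own, called 32 members higher and 1 lower. Of the 25914 genes to which it gave an adjusted p, 14.0% were higher and 12.5% lower. The 32 genes that were higher with TMM were also higher in each of these 3 fits.

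Both ligands and receptors were among the genes that rose. Counts by role and family stand beside 13.2% higher and 11.5% lower over all tested genes. Of 27 tested receptors, 15 were higher and 1 lower. Of 21 ligands held at the membrane, 11 were higher, and of 12 secreted ligands 6 were. By family, 13 of 20 semaphorins, 8 of 11 Eph receptors, 3 of 9 plexins, 3 of 8 ephrins, 2 of 3 Robos, 2 of 4 Unc5 receptors, 1 of 3 netrins and none of 2 Slits were higher.

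**Figure D2:**
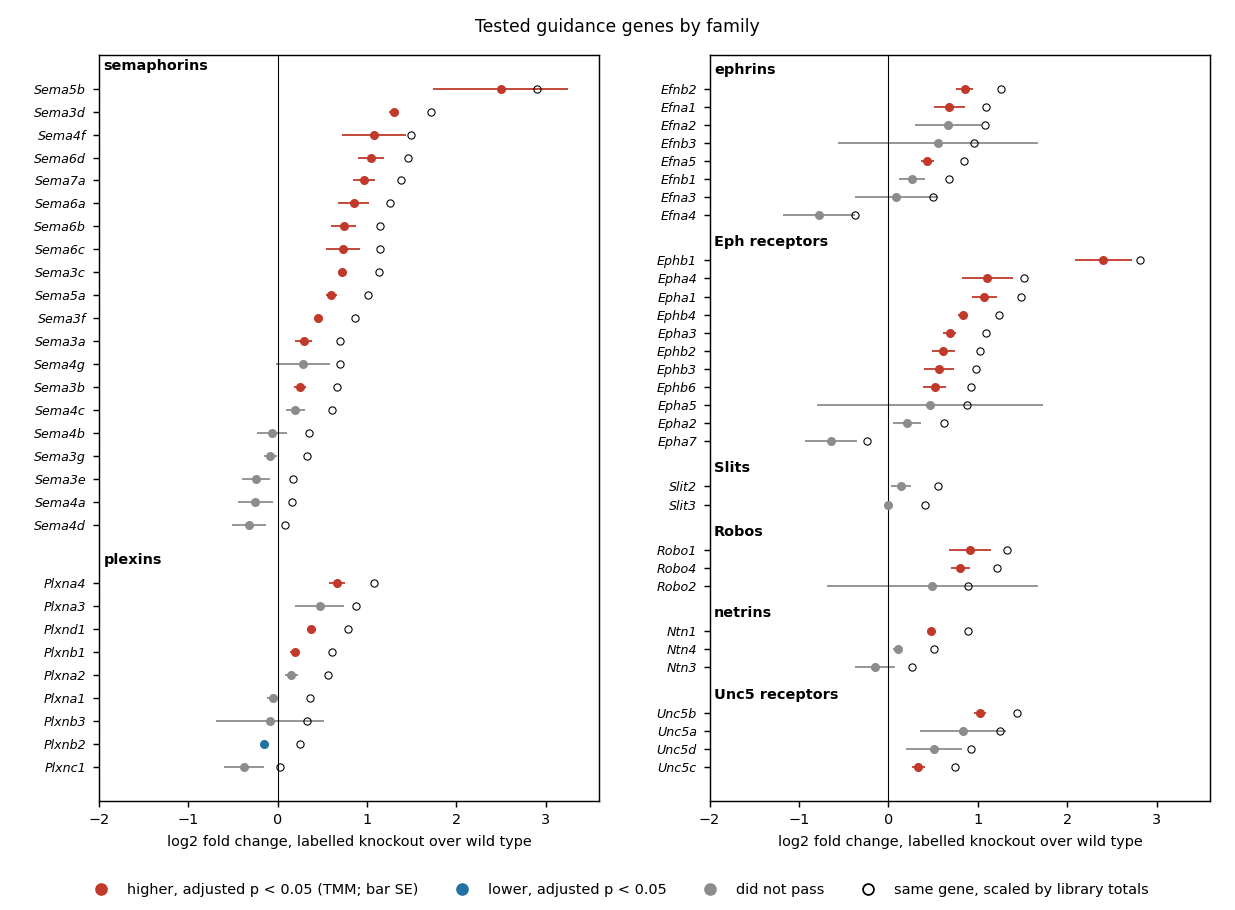
Log2 fold change, labelled knockout over wild type, of the 60 tested genes by family, with bars of 1 SE. Open circles give the same gene scaled by library totals, which lie to the right of every filled point, and grey points did not pass.

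Promoters of 5 genes are shown because they carry the contrast among vascular receptors and ligands described below. These are 4 genes that rose and Plxnb2, the only member called lower after TMM scaling. Each runs from 250 bases before to 50 bases after the start of the gene in RefSeq, build GRCm38.p6, written 5′ to 3′ on the strand of the gene. Capitals mark the letters of the SMAD box, CAGAC or GTCTG on the other strand, and of the GC box, GGGCGG or CCGCCC on the other strand. The SMAD box was searched because the study's title names SMAD7. Neighbouring matches can share a base, and RefSeq starts can differ from the gene starts of the deposited table.
Ephb4, chr5:137349859-137350158, plus strand: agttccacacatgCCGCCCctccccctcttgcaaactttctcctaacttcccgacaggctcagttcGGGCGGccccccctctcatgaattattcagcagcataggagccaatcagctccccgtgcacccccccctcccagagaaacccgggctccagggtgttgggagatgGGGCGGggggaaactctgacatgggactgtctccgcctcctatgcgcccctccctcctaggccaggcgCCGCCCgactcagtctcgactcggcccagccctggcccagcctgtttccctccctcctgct
Efnb2, chr8:8661193-8661492, minus strand: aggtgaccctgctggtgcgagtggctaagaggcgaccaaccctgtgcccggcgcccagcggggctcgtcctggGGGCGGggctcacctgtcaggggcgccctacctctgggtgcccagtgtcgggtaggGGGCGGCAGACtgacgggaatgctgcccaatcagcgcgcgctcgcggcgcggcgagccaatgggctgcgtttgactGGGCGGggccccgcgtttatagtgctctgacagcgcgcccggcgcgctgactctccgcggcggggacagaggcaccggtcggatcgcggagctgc
Unc5b, chr10:60831532-60831831, minus strand: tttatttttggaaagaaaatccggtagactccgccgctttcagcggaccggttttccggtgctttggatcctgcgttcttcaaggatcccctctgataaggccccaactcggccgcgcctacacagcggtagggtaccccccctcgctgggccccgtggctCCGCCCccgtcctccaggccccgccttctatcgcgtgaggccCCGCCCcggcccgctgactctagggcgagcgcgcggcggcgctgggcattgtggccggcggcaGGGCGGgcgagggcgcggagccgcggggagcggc
Robo4, chr9:37401722-37402021, plus strand: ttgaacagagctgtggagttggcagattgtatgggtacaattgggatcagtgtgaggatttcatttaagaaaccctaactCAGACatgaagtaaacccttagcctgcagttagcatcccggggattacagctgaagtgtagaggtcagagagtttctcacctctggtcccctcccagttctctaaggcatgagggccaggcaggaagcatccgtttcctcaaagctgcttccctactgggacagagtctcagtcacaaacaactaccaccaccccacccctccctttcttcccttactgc
Plxnb2, chr15:89180739-89181038, minus strand: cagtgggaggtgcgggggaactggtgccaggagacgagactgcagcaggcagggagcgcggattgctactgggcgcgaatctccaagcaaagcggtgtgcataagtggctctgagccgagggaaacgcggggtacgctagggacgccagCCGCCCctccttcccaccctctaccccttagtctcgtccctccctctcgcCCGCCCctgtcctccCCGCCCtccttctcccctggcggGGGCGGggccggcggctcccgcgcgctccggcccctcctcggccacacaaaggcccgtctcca
Of the promoters printed, those of Efnb2 and Robo4 hold 1 SMAD box each, and those of Ephb4, Unc5b and Plxnb2 hold none. A further RefSeq promoter of Plxnb2, not printed, holds 1 SMAD box and 3 GC boxes. In the printed ones Ephb4 and Plxnb2 have 4 GC boxes each, Efnb2 and Unc5b 3 each, and Robo4 has 0. RefSeq promoters were found for 57 of the 66 genes, 73 promoters in all. A SMAD box was present in 20 of 31 promoters of genes that were higher (64.5%), in 54.8% of the other 42, and in 49.6% of 32851 promoters of all genes. GC boxes were present in 61.3% of promoters of genes that were higher, in 76.2% of the others and in 35.7% of all promoters. TATA boxes, TATAAA or TTTATA, were present in 3.23%, 2.38% and 13.6% of the same sets. These are matches of letters in a 300-base window and not binding sites.

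Semaphorins held the gene with the smallest p among all 66. Sema3d, a secreted class 3 semaphorin that takes part in heart and vein patterning, lies on chromosome 5 from 12383385 to 12588948 on the plus strand and was at 100.005, 95.4 and 99.4 CPM in the labelled knockout, against 39.0, 37.2 and 43.4 CPM in wild type. The groups did not overlap, and the rise was 2.46-fold (edgeR log2 fold change 1.30 with SE 0.06, adjusted p = 4.63e-08). Sema3c, a secreted ligand needed for septation of the cardiac outflow tract, was at 92.1, 89.5 and 88.7 CPM in the labelled knockout, against 54.1, 56.9 and 53.2 CPM in wild type (edgeR log2 fold change 0.72 with SE 0.04, adjusted p = 6.02e-07). Again every labelled knockout library lay above every wild type library. Sema3f, a secreted repellent that binds neuropilin-2, was the semaphorin with the highest FPKM. Its level was 150.4, 150.2 and 148 CPM in the labelled knockout, against 115, 112 and 102 CPM in wild type (edgeR log2 fold change 0.45 with SE 0.05, adjusted p = 2.69e-05).

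Within the secreted class 3 the members did not move alike. Of the 7, 5 were higher, namely Sema3a, Sema3b, Sema3c, Sema3d and Sema3f. Sema3a, a repellent of sympathetic axons and of endothelial cells, had the largest adjusted p of these 5 (log2 fold change 0.29, edgeR adjusted p = 0.0467), with 17.6, 19.4 and 18.03 CPM in the labelled knockout, against 13.9, 16.4 and 14.6 CPM in wild type. That call was lost when any of 5 of the 6 libraries was left out, wild type replicate 2 being the exception, with edgeR adjusted p between 0.0728 and 0.17. Sema3g, known from arterial endothelium, was at 32.9, 36.6 and 36.3 CPM in the labelled knockout, against 37.2, 34.9 and 39.7 CPM in wild type, and the groups overlapped (edgeR log2 fold change -0.08 with SE 0.07, adjusted p = 0.457). Sema3e, which binds plexin-D1 without a neuropilin, was at 6.97, 5.22 and 6.26 CPM in the labelled knockout, against 7.32, 6.70 and 7.75 CPM in wild type (edgeR log2 fold change -0.24 with SE 0.15, adjusted p = 0.306). Neither Sema3g nor Sema3e passed the test. As a share of the summed class 3 FPKM of a library, which no scaling between libraries changes, Sema3d took 15.8% ± 0.405 in the labelled knockout and 8.998% ± 0.833 in wild type. Sema3g took 10.7% ± 0.599 in the labelled knockout and 15.9% ± 1.21 in wild type.

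Calls among the membrane semaphorins are given by class, with no test between classes. All 4 of class 6 were higher, at log2 fold changes of 1.04 for Sema6d, 0.85 for Sema6a, 0.74 for Sema6b and 0.73 for Sema6c. Both of class 5 passed as higher, and of 6 in class 4 Sema4f passed (log2 fold change 1.08, edgeR adjusted p = 0.0481), at 1.55 ± 0.397 CPM in the labelled knockout and 0.734 ± 0.166 CPM in wild type (SD, n = 3 each). Sema5a, a transmembrane semaphorin with thrombospondin repeats, was at 45.7, 47.3 and 42.9 CPM in the labelled knockout, against 29.3, 30.6 and 29.7 CPM in wild type (edgeR log2 fold change 0.60 with SE 0.06, adjusted p = 2.72e-05). The groups were far apart beside their spread. Sema5b was close to the detection limit, at 0.473, 0.619 and 0.576 CPM in the labelled knockout, against 0.0544, 0.176 and 0.0621 CPM in wild type. Each wild type value was under the floor of 3 read pairs, which lay at 0.186 to 0.218 CPM there, so its size of change is not given in the text. Its call (edgeR adjusted p = 0.0341) was lost without any of 5 of the 6 libraries, with edgeR adjusted p up to 0.125, and that of Sema4f was lost without any of the 6, with adjusted p up to 0.194. Sema3b lost its call without labelled knockout replicate 2 or 3 or wild type replicate 1 (adjusted p up to 0.078), and Sema6c without labelled knockout replicate 2 (adjusted p 0.0756).

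Sema7a, the semaphorin held by a lipid anchor, which binds plexin-C1 and integrin beta 1, was at 14.9, 15.3 and 16.4 CPM in the labelled knockout, against 6.94, 9.25 and 7.67 CPM in wild type. It rose 1.96-fold and the groups did not overlap (edgeR log2 fold change 0.97 with SE 0.13, adjusted p = 0.000191). Sema4d, the ligand of plexin-B1, did not pass, at 3.16, 4.15 and 3.74 CPM in the labelled knockout, against 4.08, 5.24 and 4.502 CPM in wild type (edgeR log2 fold change -0.32 with SE 0.19, adjusted p = 0.257). Its groups overlapped.

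Plexins, the receptors of semaphorins, held the only fall called after TMM scaling. Plxnb2, a widely expressed B plexin and a receptor of class 4 semaphorins, lies on chromosome 15 from 89155549 to 89180788 on the minus strand and had the highest FPKM of its family. It was at 165, 163 and 168 CPM in the labelled knockout, against 188, 180.4 and 184 CPM in wild type. The groups did not overlap, and the fall passed the test (edgeR log2 fold change -0.16 with SE 0.03, adjusted p = 0.00352). Under library totals the log2 fold change was instead 0.25, and Plxnb2 was called higher. Its adjusted p by edgeR, DESeq2 or limma was at most 0.0236 in each of the 16 other settings tried. Plxnd1, the endothelial receptor of Sema3e, was at 52.4, 52.4 and 50.6 CPM in the labelled knockout, against 39.7, 40.5 and 39.6 CPM in wild type and rose (edgeR log2 fold change 0.37 with SE 0.05, adjusted p = 0.000229). Plxna4, which pairs with neuropilin-1 as a receptor of Sema3a, was at 25.5, 29.9 and 31.0 CPM in the labelled knockout, against 18.3, 17.9 and 18.5 CPM in wild type (edgeR log2 fold change 0.66 with SE 0.09, adjusted p = 0.000194). All labelled knockout libraries lay above the wild type for both of these receptors. Plxnb1 rose by a small amount, with 46.7 ± 0.880 CPM in the labelled knockout and 40.8 ± 0.386 CPM in wild type (SD, n = 3 each; edgeR log2 fold change 0.19 with SE 0.05, adjusted p = 0.0168), a call lost without labelled knockout replicate 1 or 3 (edgeR adjusted p 0.0686 and 0.0522). Plxnc1, the receptor of Sema7a, was low at 2.35, 1.91 and 2.25 CPM in the labelled knockout, against 3.23, 2.46 and 2.78 CPM in wild type and did not pass (edgeR log2 fold change -0.38 with SE 0.23, adjusted p = 0.267), although its groups did not overlap. Plxna1, Plxna2, Plxna3 and Plxnb3 did not pass either, at log2 fold changes from -0.08 to 0.47.

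The ephrin-B2 and EphB4 pair, used as marks of artery and vein, rose together. Efnb2 lies on chromosome 8 from 8617434 to 8661242 on the minus strand and was at 40.3, 44.5 and 39.7 CPM in the labelled knockout, against 26.3, 21.8 and 20.9 CPM in wild type. The rise was 1.80-fold (edgeR log2 fold change 0.85 with SE 0.09, adjusted p = 4.71e-05). Ephb4 lies on chromosome 5 from 137350109 to 137378669 on the plus strand and was at 52.9, 55.3 and 54.8 CPM in the labelled knockout, against 31.3, 29.7 and 30.6 CPM in wild type, a rise of 1.78-fold (edgeR log2 fold change 0.83 with SE 0.05, adjusted p = 8.01e-07). Neither gene's groups overlapped. The ratio of Efnb2 to Ephb4 FPKM within a library was 0.516, 0.544 and 0.490 in the labelled knockout, against 0.569, 0.498 and 0.462 in wild type. The groups overlapped in that ratio.

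Among other ephrins, Efna1, the ligand of EphA2 that cytokines raise in endothelial cells, was at 10.4, 10.2 and 9.27 CPM in the labelled knockout, against 5.51, 7.93 and 5.15 CPM in wild type (edgeR log2 fold change 0.68 with SE 0.17, adjusted p = 0.0137). Without labelled knockout replicate 1 or 2 or wild type replicate 1 its edgeR adjusted p was 0.0541, 0.0524 and 0.0507. Efna5, an A-type ephrin that bears a lipid anchor, had the highest FPKM of the ephrins and was at 35.2, 38.9 and 36.4 CPM in the labelled knockout, against 26.4, 26.0 and 29.4 CPM in wild type (edgeR log2 fold change 0.43 with SE 0.07, adjusted p = 0.00109). Both had groups that did not overlap. Efna2, Efna3, Efna4, Efnb1 and Efnb3 did not pass. Efna3 and Efna4 share 14.1% and 10.5% of their exon bases with antisense genes, whose reads cannot be told apart without strand. Among other tested members this share was highest for Plxna1, at 10.7%, and Sema4c, at 7.27%.

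All 5 EphB receptors were higher, and 3 of 6 tested EphA receptors. Ephb1 had the largest fold change among the called genes with every library above the detection floor, at 2.21, 2.60 and 2.61 CPM in the labelled knockout, against 0.580, 0.352 and 0.466 CPM in wild type (edgeR log2 fold change 2.41 with SE 0.31, adjusted p = 0.000202), a low level with no overlap. Epha3, a receptor of A-type ephrins with roles in heart valve formation, was the second most abundant Eph receptor by FPKM and was at 70.7, 70.4 and 74.4 CPM in the labelled knockout, against 50.2, 42.4 and 41.3 CPM in wild type (edgeR log2 fold change 0.69 with SE 0.07, adjusted p = 3.86e-05). Epha1 was at 8.67, 8.17 and 8.90 CPM in the labelled knockout, against 3.92, 3.94 and 4.38 CPM in wild type (edgeR log2 fold change 1.07 with SE 0.14, adjusted p = 0.00021), and 6.01% of its exon bases overlap the antisense gene Zyx. The levels of the labelled knockout were above those of wild type in all 3 genes. Ephb2 rose as well (edgeR log2 fold change 0.61 with SE 0.13, adjusted p = 0.00463), with 9.69 ± 0.260 CPM in the labelled knockout and 6.34 ± 0.526 CPM in wild type (SD, n = 3 each). Ephb3, Ephb6 and Epha4 also passed, at 0.57, 0.52 and 1.10 on the log2 scale. Those calls were lost without labelled knockout replicate 1, 2 or 3 or wild type replicate 3 for Ephb3 (edgeR adjusted p up to 0.116), without labelled knockout replicate 3 or wild type replicate 3 for Ephb6 (up to 0.0645), and without labelled knockout replicate 1 or 2 for Epha4 (up to 0.0738). Epha2, Epha5 and Epha7 did not pass, although Epha7 was called lower without labelled knockout replicate 1 (log2 fold change -1.02, edgeR adjusted p = 0.028).

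**Figure D3:**
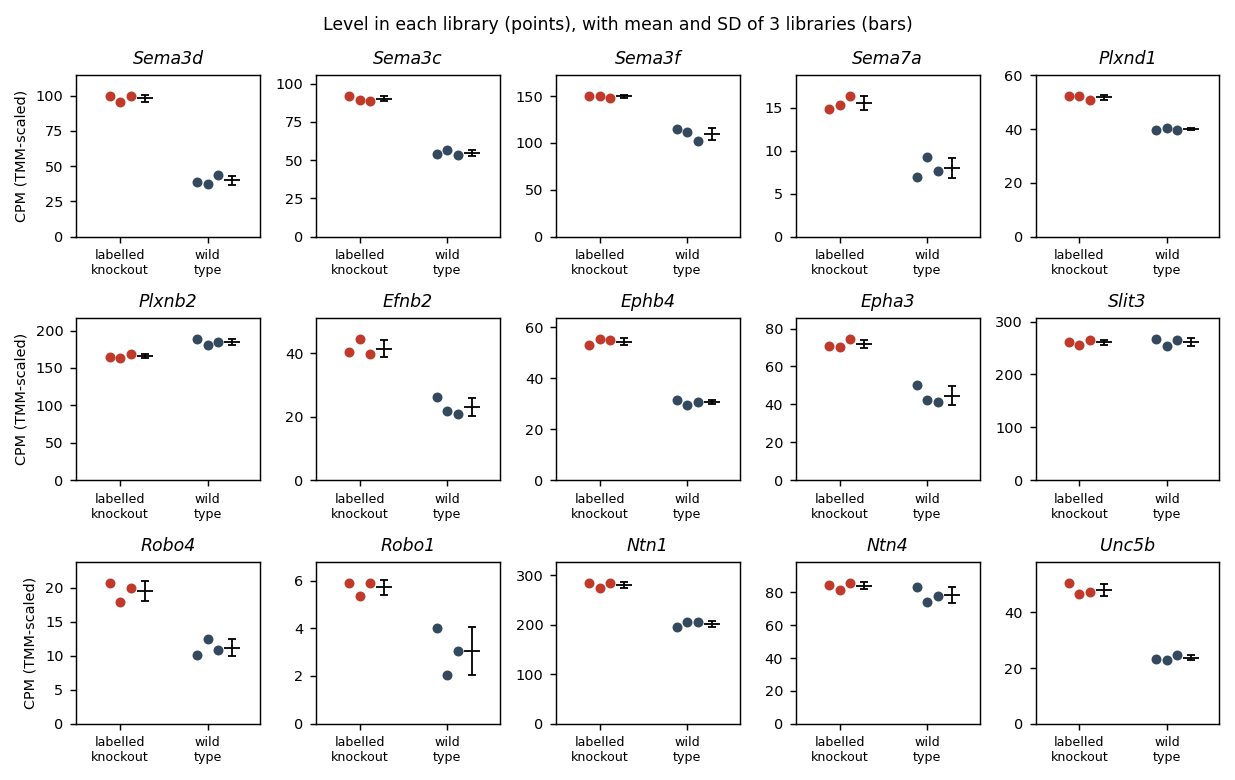
TMM-scaled CPM of 15 guidance genes in each library, as points, with mean and SD of 3 libraries beside them. Sema3d, Ephb4 and Unc5b show groups far apart, Plxnb2 is lower in the labelled knockout, and Slit3 overlaps at about the same level.

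Neither tested Slit passed, while Robo4 and Robo1 were called higher. Slit3, a secreted ligand known from vascular smooth muscle, had the highest mean FPKM of all 66 genes and lies on chromosome 11 from 35121224 to 35708507 on the plus strand. It was at 262, 256 and 264 CPM in the labelled knockout, against 267, 253 and 266 CPM in wild type. The groups overlapped (edgeR log2 fold change -0.01 with SE 0.03, adjusted p = 0.908), whereas under library totals its log2 fold change was 0.40 (edgeR adjusted p = 9.36e-07). Slit2 did not pass either, at 11.3, 11.6 and 10.8 CPM in the labelled knockout, against 10.8, 10.6 and 9.18 CPM in wild type (edgeR log2 fold change 0.14 with SE 0.11, adjusted p = 0.422), though the labelled knockout values all lay slightly above. Robo4, the endothelial Robo, lies on chromosome 9 from 37401897 to 37415115 on the plus strand and was at 20.7, 17.9 and 19.9 CPM in the labelled knockout, against 10.1, 12.5 and 10.9 CPM in wild type. It rose 1.75-fold with no overlap (edgeR log2 fold change 0.80 with SE 0.11, adjusted p = 0.000252). Robo1, a receptor of Slits in many tissues, was at 5.91, 5.35 and 5.88 CPM in the labelled knockout, against 4.02, 2.02 and 3.06 CPM in wild type (edgeR log2 fold change 0.91 with SE 0.24, adjusted p = 0.0159). Wild type libraries spread widely for Robo1, and its call was lost without labelled knockout replicate 1 or 3 (edgeR adjusted p 0.0576 and 0.0551). Robo2 was near the detection limit and did not pass.

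Netrin-1 and its repulsive receptor Unc5b both rose. Ntn1, a secreted laminin-related guidance protein, lies on chromosome 11 from 68209364 to 68400823 on the minus strand and was at 284, 274 and 284 CPM in the labelled knockout, against 195, 205 and 205 CPM in wild type (edgeR log2 fold change 0.48 with SE 0.03, adjusted p = 6.45e-07). Unc5b, which restrains endothelial sprouting when bound, lies on chromosome 10 from 60762593 to 60831581 on the minus strand and was at 50.7, 46.6 and 47.4 CPM in the labelled knockout, against 23.4, 23.0 and 24.7 CPM in wild type, a rise of 2.03-fold (edgeR log2 fold change 1.02 with SE 0.06, adjusted p = 5.03e-07). In both genes every labelled knockout library was above every wild type library. Ntn4, a netrin of basement membranes, was at 84.9, 81.7 and 85.9 CPM in the labelled knockout, against 83.3, 73.9 and 78.0 CPM in wild type and did not pass (edgeR log2 fold change 0.10 with SE 0.05, adjusted p = 0.176). Unc5c was at 21.0, 22.1 and 21.4 CPM in the labelled knockout, against 16.9, 17.6 and 16.6 CPM in wild type (edgeR log2 fold change 0.34 with SE 0.08, adjusted p = 0.0079), while Unc5a, Unc5d and Ntn3 did not pass.

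By deposited FPKM, a level per length, Slit3 and Ntn1 led the 66 genes. Ntn1 was at 44.2, 42.5 and 44.2 FPKM in the labelled knockout, against 22.8, 23.9 and 24.0 FPKM in wild type. Slit3 was at 42.1, 41.1 and 42.6 FPKM in the labelled knockout, against 32.3, 30.6 and 32.3 FPKM in wild type. Ntn1 was above Slit3 within each labelled knockout library, although their ranges over these libraries overlapped. Slit3 was above Ntn1 within each wild type library, with no overlap. Sema3f, Plxnb2 and Ntn4 followed, at means of 28.1, 20.9 and 21.9 FPKM in the labelled knockout, against 15.5, 17.5 and 15.4 FPKM in wild type. FPKM carries the mitochondrial difference, and on it the labelled knockout was above wild type without overlap for 50 of 60 members and for 53.2% of all tested genes.

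Shares of a family's summed FPKM did not always follow the calls, as a gene that rose less than its family lost share. Unc5b took 83.2% ± 1.55 in the labelled knockout and 76.6% ± 2.06 in wild type of Unc5 receptor FPKM, and Unc5c 12.1% ± 0.582 in the labelled knockout and 17.9% ± 0.658 in wild type. Ntn1 took 65.9% ± 0.179 in the labelled knockout and 59.8% ± 2.09 in wild type of the netrins, and Ntn4 33.2% ± 0.171 in the labelled knockout and 39.0% ± 1.96 in wild type. Unc5b and Ntn1 held larger shares in the labelled knockout and Unc5c a smaller one, with no overlap between libraries, although all 3 genes were called higher. Plxnb2 held 49.4% ± 0.383 in the labelled knockout and 56.1% ± 1.77 in wild type of the plexins, and Plxnd1 16.4% ± 0.464 in the labelled knockout and 12.8% ± 0.0810 in wild type. Efnb2 held 24.5% ± 0.672 in the labelled knockout and 19.5% ± 2.51 in wild type of the ephrins. Slit3 made up nearly all Slit FPKM, with 98.9% ± 0.0813 in the labelled knockout and 99.1% ± 0.0797 in wild type.

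Summed over a family on the CPM scale, semaphorins were at 576 ± 3.50 CPM in the labelled knockout and 392.5 ± 2.79 CPM in wild type, Eph receptors at 181 ± 1.16 CPM in the labelled knockout and 111 ± 7.89 CPM in wild type, and Unc5 receptors at 72.6 ± 1.29 CPM in the labelled knockout and 42.6 ± 0.484 CPM in wild type. Plexins, with abundant Plxnb2, were at 380.4 ± 3.77 CPM in the labelled knockout and 367 ± 5.14 CPM in wild type, and Slits at 272 ± 4.04 CPM in the labelled knockout and 272 ± 7.26 CPM in wild type. The sums thus differed most for the Robos, Unc5 and Eph receptors, with 1.78, 1.70 and 1.62 times the wild type sum, and least for the Slits, with 1.0002 times.

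Ratios within a library compare a ligand with its receptor without any scaling between libraries. They were formed for 11 pairs of known binding partners or fellow receptors, chosen after the values were seen. They are therefore a description with no test, and many set a gene that was called beside one that was not. The groups did not overlap in 10 of them, but how often ratios of other gene pairs stay apart was not computed. Ntn1 over Unc5b was 5.81 ± 0.196 in the labelled knockout and 8.48 ± 0.325 in wild type (SD, n = 3 each), the lower value lying in the labelled knockout, where the receptor rose more than its ligand. Slit3 over Robo1 was 125 ± 5.01 in the labelled knockout and 256 ± 83.9 in wild type, and Sema3e over Plxnd1 0.0931 ± 0.0135 in the labelled knockout and 0.142 ± 0.0121 in wild type. The labelled knockout was below wild type in 6 of the 10 pairs and above it in 4. Sema7a over Plxnc1 was 18.4 ± 2.12 in the labelled knockout and 7.33 ± 2.07 in wild type, Sema3c over Plxnd1 1.78 ± 0.0279 in the labelled knockout and 1.40 ± 0.0320 in wild type, and Efna1 over Epha2 3.93 ± 0.338 in the labelled knockout and 2.80 ± 0.502 in wild type. Between the endothelial receptors, Robo4 over Unc5b was 0.477 ± 0.0218 in the labelled knockout and 0.555 ± 0.0723 in wild type.

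**Figure D4:**
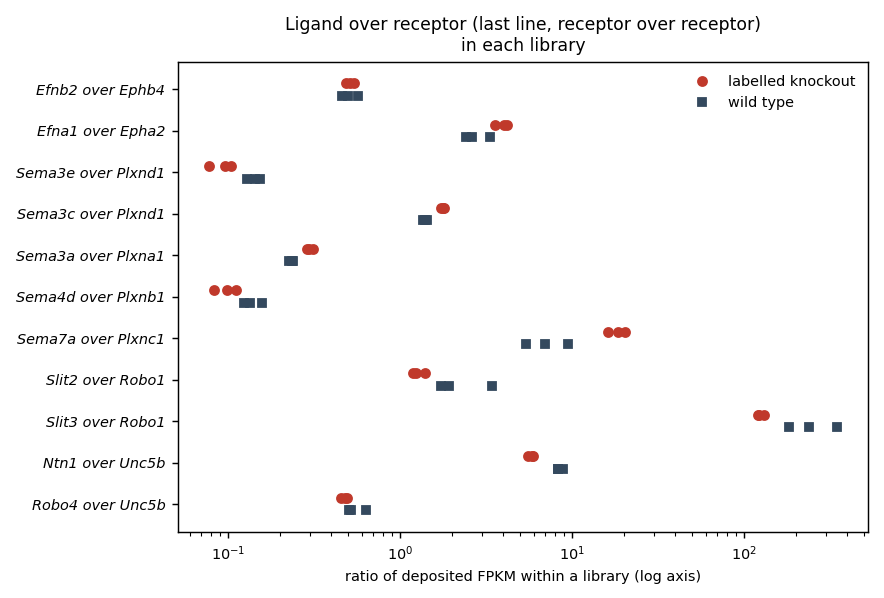
Ratio of deposited FPKM within each library (log axis) for 10 ligand and receptor pairs and, in the last line, Robo4 over Unc5b, with labelled knockout libraries as circles and wild type libraries as squares. Efnb2 over Ephb4 overlaps, Sema7a over Plxnc1 is higher in the labelled knockout, and Ntn1 over Unc5b is lower.

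Transcripts of the proteins that work with these ligands and receptors were called in both directions. Over all tested genes 13.2% were higher and 11.5% lower, and the lists were not tested against the 60 genes. Of 25 tested cofactors and coreceptors, out of 28 listed, 9 were higher (36%) and 6 lower (24%), with a median log2 fold change of 0.22. The neuropilin Nrp2, a coreceptor of class 3 semaphorins, was at 32.5 ± 2.45 CPM in the labelled knockout and 18.7 ± 0.763 CPM in wild type (edgeR log2 fold change 0.80 with SE 0.08, adjusted p = 2.21e-05), and Nrp1 also rose (log2 fold change 0.60, edgeR adjusted p = 2.59e-05). Chl1, a cell adhesion molecule that associates with neuropilin-1, rose as well (log2 fold change 1.499, edgeR adjusted p = 9.36e-06). Mcam, a netrin-1 receptor of vascular cells, fell (log2 fold change -0.34, edgeR adjusted p = 4.86e-07), with 435 ± 8.23 CPM in the labelled knockout and 550.2 ± 5.07 CPM in wild type, and so did Itgb1, the integrin beta 1 subunit (log2 fold change -0.18, edgeR adjusted p = 1.13e-06). Of 53 tested genes of the intracellular signalling below these receptors, out of 54 listed, 12 were higher (22.6%) and 16 lower (30.2%), with a median of -0.02. The actin-severing cofilin Cfl1 fell (log2 fold change -0.43, edgeR adjusted p = 7.07e-07), as did the small GTPase Cdc42 (log2 fold change -0.32, edgeR adjusted p = 5.9e-06). Mical2, an actin-oxidising enzyme, rose (log2 fold change 0.36, edgeR adjusted p = 1.92e-06), and so did the actin-binding Ablim1 (log2 fold change 0.57, edgeR adjusted p = 1.15e-05). Of both lists together 26.9% were higher and 28.2% lower. Under library totals 55 of the 78 were higher and 5 lower, while 46.8% of all tested genes were higher and 3.81% lower. The falls thus depend on the scaling.

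Cell type markers differed between the same libraries, and their counts stand beside 13.2% higher and 11.5% lower over all tested genes. In bulk tissue, fewer cells of a type and less RNA per cell cannot be told apart. Of 14 endothelial markers, 11 were higher and 1 lower, with a median log2 fold change of 0.72 and a summed level of 1003 to 1014 CPM in the labelled knockout, against 615 to 636 CPM in wild type. Vwf, the endothelial clotting factor, was at 232 ± 6.08 CPM in the labelled knockout and 108 ± 2.94 CPM in wild type (log2 fold change 1.10, edgeR adjusted p = 1.74e-09), and the receptors Tie1 and Kdr had log2 fold changes of 1.149 and 1.86. Of 15 arterial and venous markers, 8 were higher and 2 lower, with a sum of 387 to 391 CPM in the labelled knockout, against 327 to 342 CPM in wild type. Flt4, the receptor of venous and lymphatic endothelium, rose (log2 fold change 1.99, edgeR adjusted p = 1.2e-06), and the arterial connexins Gja5 and Gja4 fell (log2 fold change -1.25, edgeR adjusted p = 5.23e-06; log2 fold change -0.84, edgeR adjusted p = 2.24e-05). In the same libraries Efnb2 and Ephb4 were both higher.

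Counts of the other lists stand beside the same 13.2% higher and 11.5% lower over all tested genes. Of 12 macrophage markers 10 were lower and 1 higher, with a sum of 441 to 450.1 CPM in the labelled knockout, against 835 to 863 CPM in wild type. Of 12 tested markers of lung, kidney and other organs, 9 were lower and none higher, with a sum of 2.35 to 3.61 CPM in the labelled knockout, against 36.2 to 40.4 CPM in wild type. Lymphatic markers were higher for 3 and lower for 2 of 7, with log2 fold changes from -0.57 to 3.17 and a median of 0.23. Their sum was 92.6 to 94.02 CPM in the labelled knockout, against 54.4 to 60.9 CPM in wild type. The largest rise in the list was that of Prox1, a regulator of lymphatic identity (log2 fold change 3.17, edgeR adjusted p = 2.69e-06). Of 9 adipocyte markers 5 were higher and none lower, of 10 smooth muscle markers 6 were higher and 2 lower, and of 10 fibroblast markers 3 were higher and 6 lower, with the fibroblast list summing to 2402 to 2435 CPM in the labelled knockout, against 2336 to 2386 CPM in wild type. Schwann cell and nerve markers were higher for 3 and lower for 4 of 13, with a sum of 327 to 336 CPM in the labelled knockout, against 248 to 253 CPM in wild type. Thymocyte and lymphocyte markers were higher for 4 of 11 and lower for none, with a sum of 32.8 to 34.9 CPM in the labelled knockout, against 15.7 to 25.2 CPM in wild type, and neither tested mesothelial marker passed. Svs2, Svs4 and Umod of the list of other organs were at 0 counts in all 3 labelled knockout libraries, and Upk1b and Upk3b of the mesothelial list in all 3 wild type libraries. No listed marker was at 0 in all 6 libraries. The part of these markers in the rise of guidance genes was not tested.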

How the data were processed

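Per the labels' protocols, Trizol RNA of aortas was enriched for poly(A) and sequenced as paired ends in 6 libraries. Per the submitters' processing notes, Bowtie 0.12.2, HISAT2 2.0 and build mm8 were used, with no role given. The sources used here do not name the counting tool, the annotation or the use of strand. Start and end in the deposited table equal those of GENCODE M21, a GRCm38 annotation, for 86% of identifiers and for 56 of the 66 guidance genes, so its coordinates are given and none of mm8. The authors deposited counts and FPKM for 41064 genes. The deposited counts are whole numbers with peaks at 4, 8 and 12 and were treated as estimated counts, which the rounding left as they were. The deposited FPKM are scaled by the authors to each library's total, mitochondrial genes included.

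After filterByExpr and TMM scaling in edgeR, the quasi-likelihood test of labelled knockout over wild type was adjusted by Benjamini-Hochberg over 20132 genes, with a threshold of 0.05. Guidance genes and lists were chosen with earlier results of these data known. Members were named as the up to 5 called genes of each family with the smallest p, the most abundant one and a list of vascular genes, and others after values were seen. The other lists give up to 4 genes by smallest p, and Nrp1 was chosen after its value was seen. A library's detection floor of 3 read pairs, 12 counts, lies at 0.137 to 0.218 CPM after TMM scaling and covers counting error only. The edgeR steps were tested on simulated data with known changes. Transcripts were compared by BLAST+ 2.17.0 at 97% identity over 100 bases, which joined no member with another. The software comprised edgeR 4.0.16, DESeq2 1.42.0 and limma 3.58.1 in R 4.3.3. The other settings tried were DESeq2, edgeR with DESeq2 size factors or library totals, mitochondrial genes left out, no filter, a mean FPKM of at least 1, counts divided by 4, limma on log2(FPKM + 1) and log2(FPKM + 0.1), a replicate block and each library left out in turn.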

Additional observations from a re-analysis of the deposited data

How the results depend on the processing

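The 32 members called higher numbered 29 with no filter on low counts, 23 of the 32 members tested at a mean FPKM of at least 1, 32 with DESeq2, 45 with library totals and 46 and 44 with limma on log2(FPKM + 1) and log2(FPKM + 0.1). The fit with the replicate number as a block called 30, against 12.2% of all genes, losing Sema4f and Sema5b. Deviations of same-numbered libraries from their group means had r of 0.05, -0.02 and -0.01 over 14206 genes. These values show no pairing, but with 3 libraries a group they cannot exclude one. Leaving out single libraries gave 24 to 32 members higher, 1 to 2 lower, 3756 to 4458 genes called in all against 4981, 18 to 22 cofactors and signalling genes higher and 17 to 21 lower. Of the 33 called members, 22 kept their call without any single library and 21 in every alternative that tested them. Shares of all genes called higher were not computed with no filter, the FPKM filter, limma on log2(FPKM + 0.1) or libraries left out. Member counts in those fits thus stand without a background.

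Library totals and limma with pseudocounts of 1 and 0.1 called 10193, 10314 and 10196 genes in all, 0 members lower in each, 55, 52 and 51 cofactors and signalling genes higher and 5 lower in each. In each of these fits 11 members changed sign against TMM, 6 of them named members, and Plxnb2 was called higher. In the same order, the log2 fold changes of those 6 turned positive, for Plxnb2 (0.25, 0.24 and 0.25), Sema3g (0.33, 0.29 and 0.32), Sema3e (0.17, 0.064 and 0.14), Sema4d (0.086, 0.028 and 0.073), Plxnc1 (0.031, 0.0062 and 0.023) and Slit3 (0.40, 0.39 and 0.40). Slit3, near 0, also changed sign with DESeq2 (0.00028), with no filter (0.024) and without labelled knockout replicate 2 or wild type replicate 1 or 3, with -0.027 to 0.011 over the libraries left out. Library totals and FPKM leave the larger mitochondrial share of wild type in the scale. Total counts limit genes near the floor, such as Sema5b and Robo2.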
